A study of Homo sapiens with 9 samples.

Results

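RAB GTPases were followed here in SNU5, a cell line established from a human gastric carcinoma. The members were all protein-coding genes whose symbol is RAB followed by a number and, where present, a letter and a digit. This gave 62 genes of the 60880 gene IDs in the count files. They were placed by known function in early endosome and uptake (8 genes), recycling endosome (9), late endosome, lysosome and autophagy (10), secretory at ER and Golgi (14), secretory at exocytosis (12) and other or less known (9). RAB7B was not analysed here.

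Poly-A RNA was sequenced from 3 libraries each of cells given a gold nanorod with PEG and antibody (AuNR-PEG-Ab, NR), a gold nanosphere with PEG and antibody (AuSP-PEG-Ab, SP) or the antibody alone (Ab). The antibody was ramucirumab, which binds VEGFR2, at 8 μg/mL in all 3 groups, and the treatment lasted 24 h. No untreated cells and no particles without antibody are among the libraries used here, so a difference from Ab is one from antibody alone, and the parts of gold and PEG in it cannot be told apart. The study speaks of biological replication, while the labels do not tie each library to a culture of its own, so the p-values measure the spread between these libraries, part of which may be technical.

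RAB proteins are small GTPases that mark the membranes of the secretory and endocytic routes. Each one is switched on by an exchange factor (GEF), which loads GTP, and switched off by a GTPase-activating protein (GAP). In the GTP form it recruits effectors such as tethers, motors and coat adaptors, and GDI proteins carry the GDP form through the cytosol. Material taken up by a cell, a particle included, passes from RAB5 compartments either back to the surface with RAB4 and RAB11 or on to lysosomes with RAB7.

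The Ab libraries held 19566064, 26318227 and 21031024 counts, the NR libraries 25735410, 13863155 and 15943980 and the SP libraries 21682836, 22914759 and 20601906. RAB genes took between 0.271% and 0.285% of the counts of a library, with no group apart from the rest. Mitochondrial genes took 4.36% to 4.66% in NR and SP libraries and 3.41% to 3.71% in Ab libraries. Within Ab, replicate 1 stood apart from replicates 2 and 3, with a chi-square per gene of 7.25 and 6.67 against them, where replicates 2 and 3 gave 2.13. Replicate 1 had the larger values in the particle groups too. They were 3.16 and 3.61 in NR, where replicates 2 and 3 gave 1.79, and 4.06 and 5.01 in SP, where these gave 2.97. A count of 0 allows up to 3 counts, and this floor covers counting error only.

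Markers of epithelial cells were checked first. KRT8 and KRT18, keratins of simple epithelium, were high in every library, with KRT8 at 642 to 2020 CPM (counts scaled to a common library total), while KRT19 and ESRP1 had at most 1 count in any library. The summed level of the 8 epithelial markers was 906 to 975 CPM in Ab and 2254 to 2403 CPM in NR and SP, and KRT8 was the most abundant. CDH1, which encodes E-cadherin, had 5, 5 and 9 counts in Ab and 79 to 159 in NR and SP. The 6 fibroblast markers summed to 18.01 to 46.1 CPM in Ab and 105 to 118 CPM in NR and SP, led by COL1A1 or LUM, and the endothelial markers to 3.59 to 5.13 and 20.7 to 24.1 CPM, led by CDH5. The 7 leukocyte markers summed to 1.31 to 2.13 CPM in Ab and 5.49 to 8.01 CPM in NR and SP, with PTPRC, CD3E and LYZ at or near 0 in all libraries and CSF1R the most abundant in 5 of the 6 NR and SP libraries. The sums were not borne by every gene. Among the epithelial markers, CLDN4 (log2 0.09 in both comparisons) and CLDN7 (-0.13 in NR and -0.17 in SP) did not pass. DCN, LUM and PDGFRB had at most 24 counts in an Ab library and at least 150 in each NR and SP library, but COL1A2 had 198, 278 and 33 counts in Ab, 37, 0 and 0 in NR and 49, 49 and 43 in SP, COL3A1 did not pass (log2 0.03 in NR and 0.27 in SP), and CD14, a monocyte marker, had 21, 13 and 8 counts in Ab and at most 7 in an NR or SP library. The summed levels of these lists did not overlap between Ab and the particle groups, the same libraries as those compared for RAB genes below, and their part in the RAB results was not tested. In NR, LUM was 39.5-fold higher than in Ab. CDH1 passed the count filter through the particle libraries alone, so no fold is given for it. Whether the Ab cells differed from the others in more than the treatment cannot be told apart here, which bears on every value against Ab. In bulk RNA, fewer cells of a type and less RNA per cell cannot be told apart.

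The first question was how the RAB genes stood after nanorods as compared with antibody alone. Of the 62 genes, 47 had enough counts to be tested, of which 33 passed an adjusted p of 0.05 (edgeR's quasi-likelihood test, Benjamini-Hochberg adjustment over all genes), 20 higher in NR and 13 lower. Over all 15009 genes tested, 72.7% passed, with 36.4% of the tested genes higher and 36.4% lower, so the RAB shares of 42.6% and 27.7% lie near those of genes at large. A change of at least 2-fold as well was found for 8 RAB genes, 6 higher and 2 lower, against 22.7% of all genes, 12.4% higher and 10.3% lower. The median log2 fold change was 0.10 for the tested RAB genes and -0.01 for all genes, and the median of its size was 0.41 and 0.51. The RAB median was 0.049 without NR replicate 2 and 0.057 with at least 10 counts in every library. Leaving out genes that share over 10% of their exon bases gave 13 RAB genes higher and 12 lower.

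Nanospheres against antibody alone gave 47 RAB genes tested, of which 32 passed, 20 higher and 12 lower, where 73% of all 15068 genes passed, 36.4% higher and 36.6% lower. With the 2-fold minimum there were 7, 5 higher and 2 lower, against 23.2% of all genes, 12.6% higher and 10.6% lower. The RAB median log2 fold change was 0.12, that of all genes -0.01, and the medians of the size were 0.52 and 0.51. The control in both cases is the same set of 3 Ab libraries, so their likeness is no independent result and the values are given side by side. Fold changes named below as called are those past both the adjusted p and 2-fold. RAB3A, which passed the count filter through the particle libraries alone, is among the genes called higher in both comparisons. The shares of all genes given here also stand beside the counts by functional group below, and no group was tested as a set.

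**Figure D1:**
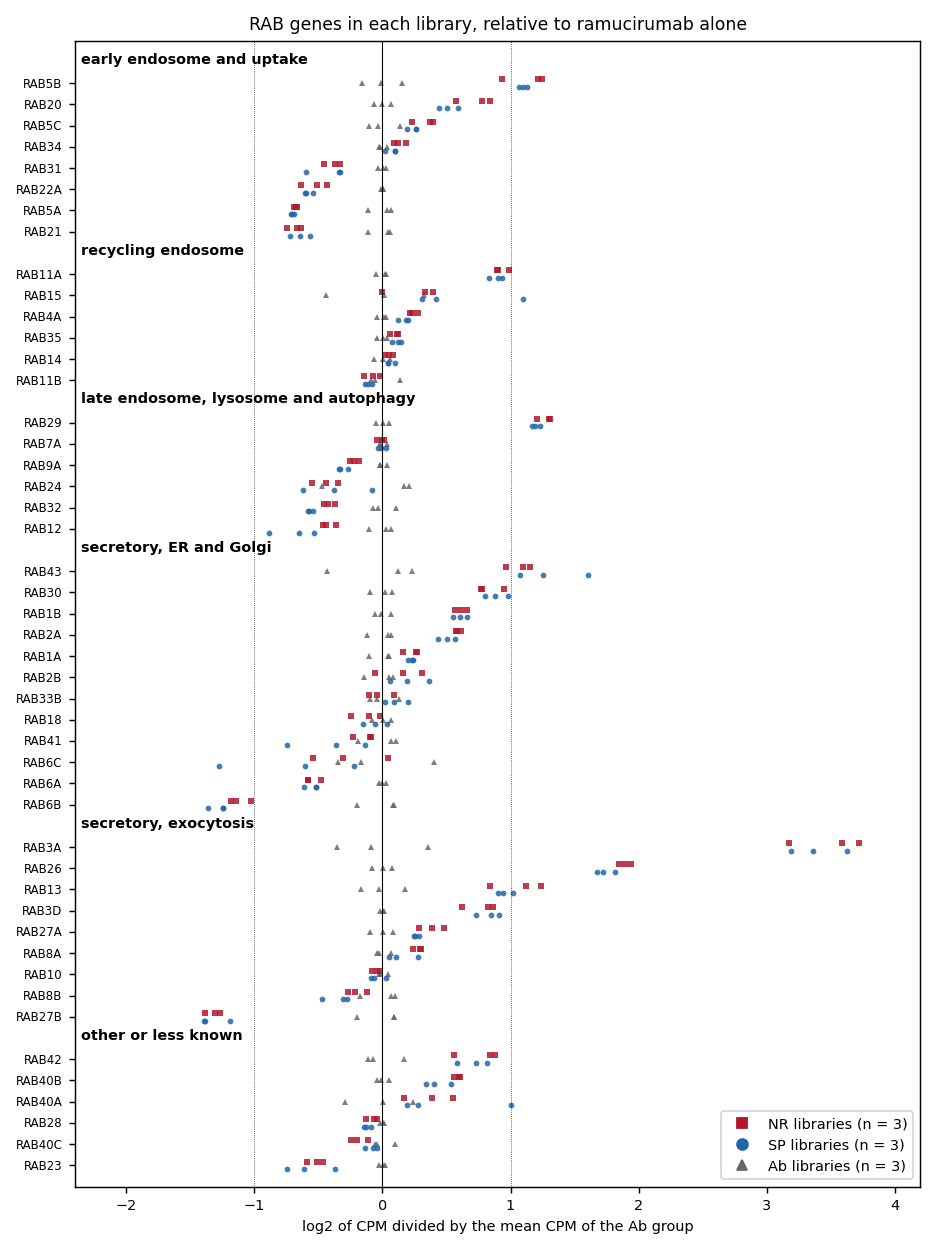
Level of each tested RAB gene in each library, as log2 of its CPM over the mean CPM of the Ab group, by functional group (squares NR, circles SP, triangles Ab, 3 libraries each; dotted lines mark 2-fold). RAB3A and RAB26 lie farthest to the right and RAB27B and RAB6B farthest to the left, with NR and SP points close together. RAB3A passed the count filter through the NR and SP libraries alone.

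Of the RAB genes of early endosome and uptake, all 8 were tested, and 4 rose and 4 fell in NR, while SP had 3 that rose and 4 that fell. Their median log2 fold change was -0.12 in NR and -0.17 in SP. RAB5A, the main GTPase of early endosome fusion, had 126, 144 and 141 CPM in Ab, 85.5, 84.7 and 86.0 CPM in NR and 84.8, 83.6 and 83.8 CPM in SP. All 6 libraries with particles lay below all 3 Ab libraries. RAB5A fell 1.60-fold in NR (log2 -0.68, SE 0.05, adjusted p = 3.2e-12 by edgeR) and 1.62-fold in SP (log2 -0.69, adjusted p = 6.0e-12).

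RAB5B, a paralog that acts at the same compartment, went the other way. It had 22.9, 18.4 and 20.4 CPM in Ab, 39.2, 47.7 and 48.8 CPM in NR and 43.0, 44.9 and 44.05 CPM in SP, with no overlap between Ab and either particle group. RAB5B rose 2.20-fold in NR (log2 1.14, SE 0.09, adjusted p = 5.8e-10 by edgeR) and 2.16-fold in SP (log2 1.11, adjusted p = 4.0e-13), and was the only gene of its group called in either comparison. RAB5C, the third paralog, rose by less, with a log2 fold change of 0.35 in NR and 0.25 in SP. Other annotated genes overlap 30.4% of its exon bases, and its SP result has an adjusted p of 0.0077 in edgeR and of 0.059 without Ab replicate 3.

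Among the other early members, RAB21, which works in integrin endocytosis, fell with log2 fold changes of -0.68 in NR and -0.64 in SP. RAB22A, of early and sorting endosomes, fell by 0.52 in NR and by 0.57 in SP on the log2 scale, and RAB31, of traffic between the trans-Golgi and endosomes, by 0.39 and by 0.41. RAB20 rose by log2 0.74 in NR (adjusted p = 3.0e-05, edgeR) and 0.52 in SP (adjusted p = 0.0015). RAB34, linked to macropinocytosis and the highest of the group by mean RPKM (CPM per kilobase of exon) over all libraries, though below RAB5A in Ab (31.7 against 36.3 RPKM), had a log2 fold change of 0.14 in NR (adjusted p = 0.015) and 0.08 in SP (adjusted p = 0.17, edgeR). The RAB34 result in NR is lost without NR replicate 1, Ab replicate 2 or Ab replicate 3 (adjusted p 0.090, 0.054 and 0.073). Summed over the group, the level was 687 ± 13.5 CPM (SD, n = 3) in Ab, 561 ± 7.03 CPM in NR and 546 ± 5.30 CPM in SP, and its share of all RAB counts was 24.2% in Ab, 20.2% in NR and 20.0% in SP.

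**Figure D2:**
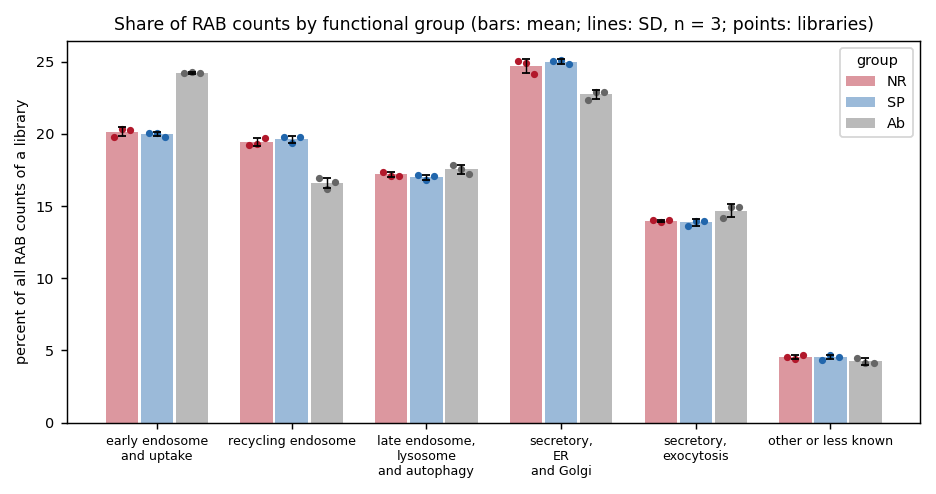
Share of all RAB counts of a library taken by each functional group, in percent (bars mean, lines SD, points libraries, n = 3 per group). The early endosome group took 24.2% in Ab and 20.2% and 20.0% in NR and SP, the recycling group 16.6%, 19.4% and 19.6%.

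The stretches before the start sites of RAB5A and RAB5B are shown because these paralogs moved in opposite directions; they were chosen after their values were seen. They are the 250 bases before the RefSeq start (GRCh38.p14), both on the plus strand, at chr3:19946847-19947096 for RAB5A and chr12:55973699-55973948 for the first of the RAB5B starts. In the files' build (GRCh37) the RAB5A gene spans chromosome 3 from 19988589 to 20026667. Capitals mark matches to the motifs searched on both strands: CACGTG, the E-box core; TCACGTGA, which contains it and is the core of the lysosomal CLEAR element; TGATGCAA, an ATF4 composite element; and TGAGTCA, an AP-1 site.
RAB5A: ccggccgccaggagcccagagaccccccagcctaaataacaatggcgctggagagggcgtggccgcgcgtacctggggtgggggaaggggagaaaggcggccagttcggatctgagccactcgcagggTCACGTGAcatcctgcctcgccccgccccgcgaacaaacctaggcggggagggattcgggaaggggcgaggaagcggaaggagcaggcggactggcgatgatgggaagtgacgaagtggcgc
RAB5B: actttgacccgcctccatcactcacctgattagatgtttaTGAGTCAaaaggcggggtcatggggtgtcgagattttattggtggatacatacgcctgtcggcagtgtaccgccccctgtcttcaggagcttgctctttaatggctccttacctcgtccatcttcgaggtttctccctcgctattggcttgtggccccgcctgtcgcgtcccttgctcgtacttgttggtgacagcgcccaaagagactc
TCACGTGA begins 122 bases before the RAB5A start, and TGAGTCA begins 210 bases before the first RAB5B start. The 250 bases before the other RAB5B start, at chr12:55973828-55974077, hold none of these motifs.

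Windows of 300 bases (250 before to 50 after a start) were found for 49 of the 62 RAB genes, 69 windows in all. CACGTG stood in 6 of them (8.7%; RAB4A, RAB5A, RAB21, RAB24, RAB29 and RAB31), beside 7.26% of all 35116 windows, and TCACGTGA in 2 (2.9%; RAB5A and RAB21), beside 0.980% of all. TGAGTCA stood in 6 windows (8.7%) of RAB3B, RAB5B, RAB13, RAB27B and RAB34, beside 4.95% of all, and TGATGCAA in 0, beside 0.866% of all. These shares carry no test. Of the holders of CACGTG, RAB4A and RAB29 rose, RAB5A, RAB21 and RAB31 fell, and RAB24 did not pass. Among those of TGAGTCA, RAB5B and RAB13 rose, RAB34 rose in NR alone, RAB27B fell, and RAB3B was not tested. A match is a description of the letters and not evidence of binding.

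The recycling group held 6 tested genes, of which 2 rose and 0 fell in NR and 4 rose and 0 fell in SP. RAB11A, which drives the slow return route through the recycling endosome, had 52.8, 55.4 and 55.7 CPM in Ab, 102, 108 and 102 CPM in NR and 102, 97.4 and 104 CPM in SP. Both particle groups lay apart from Ab with no overlap. RAB11A rose 1.91-fold in NR (log2 0.93, SE 0.05, adjusted p = 4.6e-15 by edgeR) and 1.86-fold in SP (log2 0.90, adjusted p = 6.2e-14), just short of the 2-fold minimum.

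RAB11B, its paralog, had log2 fold changes of -0.07 in NR and -0.10 in SP and passed in neither (adjusted p = 0.31 and 0.16, edgeR). RAB4A, of the fast return route, rose with 0.24 in NR and 0.18 in SP, the latter with an adjusted p of 0.011 that is 0.066 without Ab replicate 3. RAB14, between Golgi and endosomes and the highest of the group at 42.1 RPKM over all libraries, passed in neither comparison, with log2 fold changes of 0.05 and 0.07. RAB35, another fast recycling GTPase, had 0.10 in NR (adjusted p = 0.056) and 0.12 in SP (adjusted p = 0.036, edgeR), with 14.8% of its exon bases shared. The NR result passes with RLE scaling (adjusted p = 0.049) and without Ab replicate 1 (0.014), and the SP result is lost under both other count filters (0.056 and 0.054) and without SP replicate 2 or 3 or Ab replicate 2 or 3 (0.070 to 0.16). RAB15 passed in SP alone (log2 0.64, adjusted p = 0.016), resting on SP replicate 3 with 4.54 CPM against 2.84 and 2.63 in replicates 1 and 2, and without it the adjusted p is 0.18. It also does not pass in DESeq2 (adjusted p = 0.063) or in edgeR without Ab replicate 1 (adjusted p = 0.088).

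RAB17 and RAB25, recycling GTPases of polarised epithelium, were near the floor. The counts of RAB17 were 0, 2 and 1 with antibody alone, 8, 7 and 8 with nanorods and 10, 16 and 13 with nanospheres, too few for the test against Ab. RAB17 was singled out by its low counts in Ab and higher counts in NR and SP, so no ratio to Ab is given. RAB25 had at most 2 counts in any library. The group's summed level was 471 ± 5.57 CPM (SD, n = 3) in Ab, 540 ± 4.08 CPM in NR and 536 ± 10.3 CPM in SP.

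Of the late endosome, lysosome and autophagy group, 6 of 10 genes were tested, and 1 rose and 3 fell, with the same counts in both comparisons. RAB29, which recruits the kinase LRRK2 to lysosomes and the Golgi, had 14.5, 13.95 and 14.96 CPM in Ab, 35.6, 35.8 and 33.5 CPM in NR and 34.0, 33.1 and 32.5 CPM in SP. The groups did not overlap. RAB29 rose 2.43-fold in NR (log2 1.28, SE 0.08, adjusted p = 1.3e-14 by edgeR) and 2.31-fold in SP (log2 1.21, adjusted p = 8.7e-14). RAB7A, the GTPase of late endosome and lysosome fusion, was at 302, 298 and 290 CPM in NR, 297, 292 and 305 CPM in SP and 295, 307 and 295 CPM in Ab, the highest CPM of any RAB gene. Its log2 fold changes were -0.01 (95% interval -0.09 to 0.08) in NR and 0.00 (-0.09 to 0.09) in SP, and the groups overlap.

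RAB32, of lysosome-related organelles and mitochondria, was the highest of the late group per length, at 65.9 ± 4.44 RPKM (SD, n = 3) in Ab, 49.4 ± 1.54 RPKM in NR and 44.5 ± 0.601 RPKM in SP. It fell by 0.41 in NR and by 0.56 in SP on the log2 scale. RAB12, which directs the transferrin receptor to lysosomes, fell by 0.42 in NR and by 0.68 in SP, and RAB9A, of late endosome return to the trans-Golgi, by 0.21 and by 0.31. RAB24, linked to autophagy, had -0.41 in NR and -0.32 in SP and passed in neither. RAB38, RAB39A, RAB39B and RAB9B, the untested members, had at most 6 counts in any library.

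In the secretory group of ER and Golgi, 12 of 14 genes were tested, and 5 rose and 2 fell in NR as in SP. RAB1A, of ER-to-Golgi transport, was the highest RAB gene per length by its mean over all libraries, though in Ab it lay below RAB32 and RAB10, at 51.3 ± 3.09 RPKM (SD, n = 3) in Ab, 60.3 ± 2.51 RPKM in NR and 59.9 ± 0.880 RPKM in SP. RAB1A rose by a log2 fold change of 0.24 in NR and 0.23 in SP, and RAB1B, its paralog, by 0.62 and 0.61, with 22.9% of the RAB1A and 43.8% of the RAB1B exon length overlapped by other genes. RAB2A, of the intermediate compartment between ER and Golgi, rose by 0.59 and 0.51, and RAB30, a Golgi GTPase, by 0.83 and 0.89.

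RAB6A and RAB6B, of retrograde transport through the Golgi, fell. RAB6A had 217, 225 and 220 CPM in Ab, 159, 148 and 147 CPM in NR and 144, 154 and 154 CPM in SP, a log2 fold change of -0.54 in both comparisons. RAB6B, the form known from neurons, had 11.6, 11.6 and 9.54 CPM in Ab, 5.37, 4.95 and 4.80 CPM in NR and 4.62, 4.61 and 4.25 CPM in SP. RAB6B fell 2.15-fold in NR (log2 -1.10, SE 0.13, adjusted p = 2.2e-08 by edgeR) and 2.42-fold in SP (log2 -1.27, adjusted p = 1.4e-09), with no overlap of particle and Ab libraries.

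RAB43, a Golgi GTPase, was called higher in both comparisons but has few counts and shares most of its exon bases. Ab libraries had 1.09, 0.690 and 1.02 CPM, NR libraries 1.82, 2.08 and 1.99 CPM and SP libraries 1.97, 2.84 and 2.22 CPM, and 79.3% of its exon bases also belong to the readthrough gene ISY1-RAB43. It changed by log2 1.08 in NR (adjusted p = 9.4e-04, edgeR) and 1.36 in SP (adjusted p = 6.4e-05), and the NR value was 0.88 without Ab replicate 2. Summed, the ER and Golgi group stood at 645 ± 20.6 CPM (SD, n = 3) in Ab, 687 ± 17.7 CPM in NR and 683 ± 8.30 CPM in SP.

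The exocytosis group held RAB26, which had the largest change of the tested RAB genes in both comparisons when RAB3A is set aside. Of the 12 genes of this group 9 were tested. In NR 6 rose (66.7%) and 2 fell (22.2%), and in SP 5 rose (55.6%) and 2 fell (22.2%). Of all genes, 36.4% rose and 36.4% fell in NR, and 36.4% and 36.6% in SP. The summed level of the group was 416 ± 20.05 CPM (SD, n = 3) in Ab, 389 ± 2.39 CPM in NR and 379 ± 11.3 CPM in SP. RAB3A, which acts in regulated release of vesicles and is best known from synapses, had 8, 13 and 14 counts in Ab, 124, 89 and 112 in NR and 106, 152 and 113 in SP. That is 0.416, 0.498 and 0.678 CPM in Ab, 4.79, 6.38 and 6.98 CPM in NR and 4.85, 6.55 and 5.46 CPM in SP, groups far from overlap. The RAB3A level was 11.2-fold that of Ab in NR (log2 3.48) and 10.6-fold in SP (log2 3.40). RAB3A passed the count filter through the NR and SP libraries, where it is high, so its fold changes are given as a description only. It is counted as called in both comparisons.

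RAB3D, a paralog found on secretory granules, rose by less than 2-fold, with log2 fold changes of 0.78 in NR and 0.84 in SP, and 25.1% of its exon bases are shared. RAB3B and RAB3C had at most 2 counts in any library. RAB26, which acts in secretory granule maturation, had 6.03, 5.40 and 5.76 CPM in Ab, 21.99, 21.3 and 20.6 CPM in NR and 18.3, 20.2 and 18.9 CPM in SP. All particle libraries lay above all Ab libraries, and RAB26 rose 3.74-fold in NR (log2 1.90, SE 0.10, adjusted p = 1.2e-15 by edgeR) and 3.36-fold in SP (log2 1.75, adjusted p = 2.1e-14).

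RAB13, of tight junction and exocytic traffic, had 8.16, 6.44 and 7.12 CPM in Ab, 17.1, 15.8 and 13.0 CPM in NR and 14.6, 13.9 and 13.5 CPM in SP. It rose 2.14-fold in NR and 1.96-fold in SP, so that it was called in NR alone; its NR-to-SP difference was log2 0.13 (adjusted p = 0.61, edgeR), its NR change is log2 0.99 without NR replicate 1, and its SP change is log2 1.06 without Ab replicate 1 and 1.003 without SP replicate 3, past 2-fold in both. Other genes share 24.8% of the RAB13 exon bases. RAB10, of polarised delivery to the plasma membrane and the highest of this group per length at 51.0 RPKM over all libraries, passed in neither comparison (log2 fold change -0.04 and -0.03). RAB8A had 0.28 in NR, which passed, and 0.16 in SP, which did not, with 43.95% of its exon bases shared, and RAB8B fell by 0.20 in NR and by 0.34 in SP.

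RAB27B and RAB27A, which dock secretory granules and multivesicular bodies at the plasma membrane, moved in opposite directions. RAB27B had 105, 127 and 128 CPM in Ab, 49.8, 45.8 and 48.4 CPM in NR and 45.7, 52.5 and 45.9 CPM in SP. It fell 2.49-fold in NR (log2 -1.32, SE 0.07, adjusted p = 1.7e-12 by edgeR) and 2.48-fold in SP (log2 -1.31, adjusted p = 2.0e-11). RAB27A had 30.4, 32.7 and 34.5 CPM in Ab, 45.3, 39.7 and 42.5 in NR and 38.8, 39.6 and 38.5 in SP, and rose 1.31-fold in NR (adjusted p = 1.3e-05, edgeR) and 1.20-fold in SP (adjusted p = 9.6e-04).

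Ratios of levels per length between paralogs show these shifts on one scale; the pairs were chosen after their values were seen and carry no test. RAB5A made up 77.2 ± 2.80% of the summed RPKM of RAB5A, RAB5B and RAB5C in Ab (SD, n = 3), 58.0 ± 1.15% in NR and 58.8 ± 0.774% in SP. RAB5B went from 6.73% in Ab to 17.7% in NR and 17.8% in SP, and RAB5C from 16.1% to 24.3% and 23.4%, while the sum of the RAB5 paralogs was 47.0 RPKM in Ab, 39.1 in NR and 38.0 in SP. RAB5A thus remained the most abundant RAB5 paralog in all 3 groups.

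RAB27B held 85.3 ± 0.781% of the RAB27 sum in Ab, 64.2 ± 0.564% in NR and 66.1 ± 1.45% in SP, and the sum itself was 19.6 RPKM in Ab, 10.5 in NR and 10.2 in SP. The ratio of RAB11A to RAB11B was 0.316 ± 0.0355 in Ab, 0.632 ± 0.0470 in NR and 0.627 ± 0.0328 in SP. RAB3A against RAB3D stood at 0.110 ± 0.0289 in Ab, 0.742 ± 0.197 in NR and 0.649 ± 0.0603 in SP. In each of these pairs the particle libraries did not overlap with the Ab libraries, as was so for 74.7% of all single genes in NR and 75.1% in SP, whereas the ratio of RAB2A to RAB2B overlapped between SP and Ab.

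**Figure D3:**
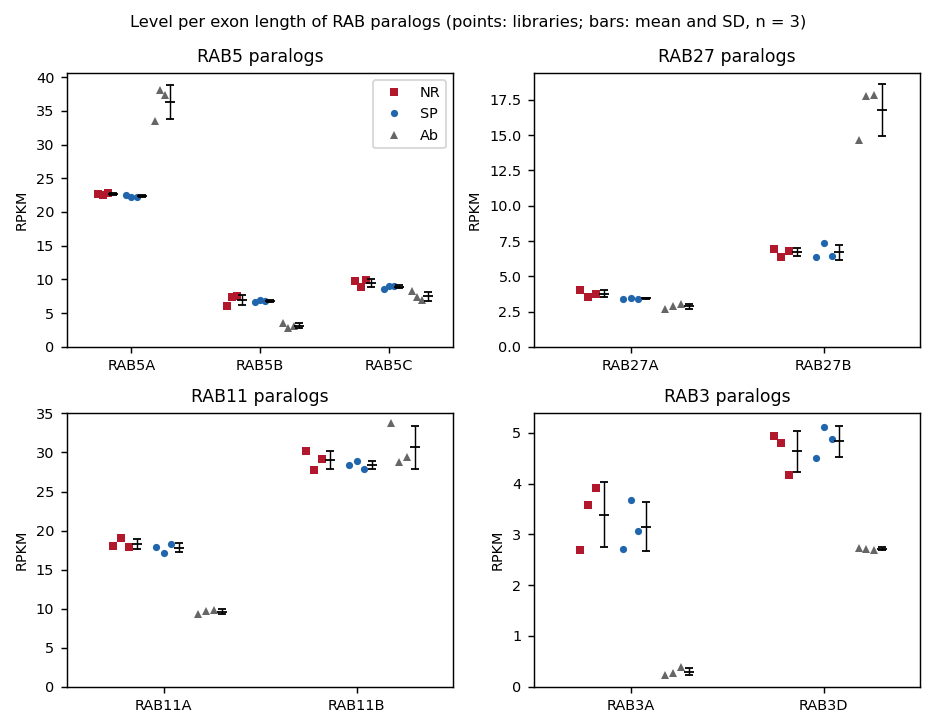
RPKM (CPM per kilobase of exon) of the paralogs of RAB5, RAB27, RAB11 and RAB3 in every library, with the mean and SD of each group (n = 3). RAB5A and RAB27B are lower and RAB5B, RAB11A, RAB3A and RAB3D higher in NR and SP than in Ab, while the RAB11B groups overlap.

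In the group of other or less known RAB genes, 6 of 9 were tested, with 2 higher and 2 lower after nanorods, and 2 higher and 1 lower after nanospheres. RAB42 rose by log2 0.78 in NR and 0.72 in SP and was the highest of the group by mean RPKM over all libraries, but not in Ab, where it had 6.29 RPKM against 9.02 for RAB40C and 8.06 for RAB28. RAB40B, whose family carries a SOCS box for ubiquitin ligases, rose by 0.59 and 0.44, and RAB23, which acts in Hedgehog signalling, fell by 0.51 and by 0.56, with 57.8% of its exon bases shared with BAG2. In all, 15 RAB genes were tested in neither comparison with Ab, of which 4 had 0 counts in all libraries (RAB3C, RAB9B, RAB19 and RAB39A) and 8 had at most 3 counts in every library. These had low counts in all 3 groups, and RAB33A, for example, had 0, 0 and 0 in NR and 3, 5 and 4 in Ab.

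Nanorods and nanospheres were then compared with each other. Of 48 RAB genes tested, 0 passed the adjusted p in edgeR, where 0.443% of all 14903 genes did, and 4 had an unadjusted p under 0.05, where 12.9% of all genes did. None of the RAB genes was called with the 2-fold minimum, where 0.0201% of all genes were. DESeq2 gave 0 past the adjusted p among the 15 RAB genes to which it assigned one, and 2 with an unadjusted p under 0.05. The median log2 fold change was 0.03, and of all genes 0.00. The NR and SP libraries did not overlap for 10 RAB genes, all higher in NR, where 17.8% of all genes did not overlap, 8.98% with NR higher and 8.84% with NR lower.

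RAB12 had the smallest adjusted p. It was at 24.3, 23.9 and 25.6 CPM in NR and 17.9, 22.8 and 21.1 CPM in SP, a log2 difference of 0.26 (95% interval 0.08 to 0.43, adjusted p = 0.17, edgeR). RAB32 followed with 0.15 (0.04 to 0.26, adjusted p = 0.22), and RAB40B with 0.16 (0.01 to 0.30, adjusted p = 0.35). The intervals, which are not adjusted for the number of genes, lay within 2-fold in either direction for 46 of the 48 genes and within 1.5-fold for 42. RAB6C and RAB17, which have few counts, are those whose intervals reached beyond 2-fold, and differences smaller than these intervals were not detectable with 3 libraries a group.

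**Figure D4:**
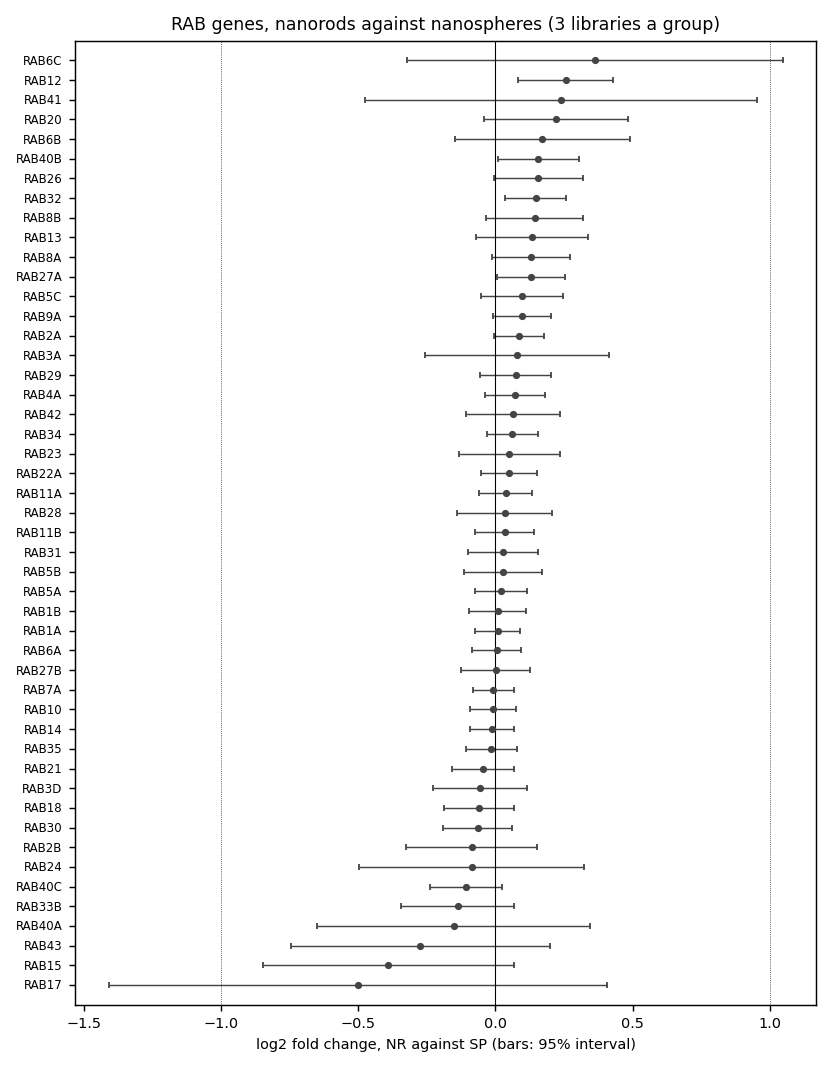
Log2 fold change of each tested RAB gene in NR against SP with its 95% interval (48 genes, 3 libraries per group; dotted lines mark 2-fold). The intervals of 46 genes stay within 2-fold in either direction, and RAB17 and RAB6C have the widest reach.

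Genes that load, switch, carry or read RAB proteins were taken from a list of 130 by class. In NR against Ab 119 were tested, 35 of them higher and 51 lower, beside the 36.4% in each direction among all genes, with 9 (7.56%) and 5 (4.2%) called, beside 12.4% and 10.3% of all genes. In SP against Ab 121 were tested, with 42 higher and 47 lower, beside 36.4% and 36.6% of all genes, and 11 (9.09%) and 8 (6.61%) were called, beside 12.6% and 10.6%. Their median log2 fold change was -0.03 in both comparisons. The same shares of all genes stand beside the counts by class below, and no class was tested as a set.

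The 8 genes of membrane extraction and prenylation serve nearly all RAB proteins. GDI2, which extracts RAB proteins from membranes and was at 280 to 332 CPM in all libraries, had a log2 fold change of 0.11 in NR (adjusted p = 0.030, edgeR) and 0.07 in SP (adjusted p = 0.22), and the NR result is lost with at least 10 counts in every library (adjusted p = 0.092) and without NR replicate 2 or 3 or Ab replicate 1 (adjusted p 0.12 to 0.14). The subunits of the geranylgeranyl transferase that adds the lipid tail moved apart, as RABGGTA rose by log2 0.76 in NR and 0.79 in SP and RABGGTB fell by 0.71 and by 0.67.

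CHM, an escort protein of that enzyme, fell by 0.23 in NR and had -0.14 in SP, which did not pass. In edgeR the SP change passed in one fit of all 9 libraries (adjusted p = 0.038), without SP replicate 2 (0.044) and without Ab replicate 1 (log2 -0.22, adjusted p = 0.0014). RABIF passed in neither, at 0.11 and 0.04. RABAC1, a GDI displacement factor, passed the count filter through the particle libraries alone and is counted as called in both (log2 1.31 and 1.15) on only 6 to 30 counts, so no change is read from it, and DESeq2 gave adjusted p values of 0.061 and 0.080. In edgeR the SP result is lost without SP replicate 1 or Ab replicate 2 (adjusted p 0.061 and 0.075).

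Among the GEFs, 8 of 36 tested rose (22.2%) and 17 fell (47.2%) in NR, and 9 rose (25%) and 16 fell (44.4%) in SP. Of all genes, 36.4% rose and 36.4% fell in NR, and 36.4% and 36.6% in SP. DENND1C, of the DENN family acting on RAB35, had 37, 38 and 37 counts in Ab, 224, 144 and 162 in NR and 241, 249 and 176 in SP, a log2 rise of 2.50 and 2.57. RAB3IL1, which acts on RAB3A and RAB8, fell by 1.49 and by 1.34, and RIN1, an exchange factor of RAB5, by 1.18 and by 1.02. The RIN1 value in SP is -0.98 without SP replicate 3 and -0.95 without Ab replicate 1, short of 2-fold. SH3BP5, an exchange factor of RAB11, rose by 1.47 and 1.45, although 53.6% of its exon bases are shared with its antisense gene and the counting is not stated to use strand.

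Of 28 GAPs tested, 10 rose and 12 fell in NR, and 12 rose and 12 fell in SP. TBC1D4, a GAP of RAB10 and RAB8A in glucose transporter traffic, had 15, 26 and 27 counts in Ab, 147, 77 and 69 in NR and 77, 127 and 64 in SP, a log2 rise of 2.33 and 1.98. TBC1D8 fell by 1.21 and by 1.20, and TBC1D20, a GAP of RAB1, by 0.99 and by 1.08, while SGSM2 had -0.99 and -1.04. TBC1D10C, counted among the GAPs that fell, had 26, 18 and 12 counts in Ab and 0 to 9 in the particle libraries, and since it passed the count filter through the Ab libraries alone, no change is read from it.

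Effectors are given by the compartment they serve. Of the early endosome effectors, 2 of 10 rose and 3 fell in NR, and 4 rose and 3 fell in SP, with APPL2, an adaptor of RAB5 signalling endosomes, lower (log2 -0.68 and -0.70) and ANKFY1, a RAB5 effector, higher (0.80 and 0.93). Of 9 recycling effectors 1 rose (11.1%) and 7 fell (77.8%) in NR, and 1 rose and 6 fell (66.7%) in SP. Of all genes, 36.4% rose and 36.4% fell in NR, and 36.4% and 36.6% in SP. The class is small and was not tested as a set. The one counted as higher was RAB11FIP4, a RAB11 adaptor, with 6, 13 and 10 counts in Ab, 80, 63 and 49 in NR and 84, 118 and 87 in SP (log2 2.98 and 3.31), and MICALL1 fell by 0.92 and by 0.80. RAB11FIP4 passed the count filter through the particle libraries alone, so its fold changes are given as a description only. It is counted as called in both comparisons.

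Of 13 late endosome effectors, nanorods had 7 higher and 4 lower, nanospheres 7 higher and 3 lower. RILP, which links RAB7 to dynein, had 60, 94 and 75 counts in Ab, 253, 121 and 172 in NR and 221, 250 and 208 in SP, a log2 rise of 1.49 and 1.58. VPS18 and VPS41, subunits of the HOPS tether that acts with RAB7, rose by 1.02 and 1.07 and by 0.85 and 0.87, and the VPS18 values are 0.957 and 0.996 without Ab replicate 2. RAB7A itself did not pass in these comparisons, as given above.

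Of the secretory effectors, 4 of 14 rose and 4 fell in NR, and 7 of 16 rose and 4 fell in SP. SYTL2, a RAB27 effector of the synaptotagmin-like family, rose by log2 1.36 and 1.62, on at most 71 counts in a library. Both counts hold SYTL4 of the same family, which had 2, 4 and 2 counts in Ab, 24, 9 and 8 in NR and 18, 12 and 13 in SP, with 39% of its exon bases shared, and passed the count filter through the particle libraries alone. The SP count also holds SYTL3 and RIMS1, which passed the count filter in SP alone, through the SP libraries, so that no change is read from these 3 genes. SYTL3 had 15, 22 and 19 counts in SP, 20, 2 and 10 in NR and 3, 9 and 6 in Ab, and RIMS1 had 15, 14 and 12, 9, 5 and 11, and 2, 1 and 7 in the same order. RILPL1, an effector of phosphorylated RAB8 and RAB10, fell by 1.05 and by 1.18, and MICALL2, a RAB13 effector, by 0.87 and by 1.01. The RILPL1 value in NR is -0.99 without NR replicate 3, short of 2-fold. The MICALL2 value in SP is -0.97 without SP replicate 3 and -0.99 without Ab replicate 1, also short of it. LRRK1, a kinase of RAB7A, fell by 0.43 and by 0.26, the latter with an adjusted p of 0.082 in edgeR without SP replicate 3, and LRRK2 had at most 3 counts in any library.

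**Figure D5:**
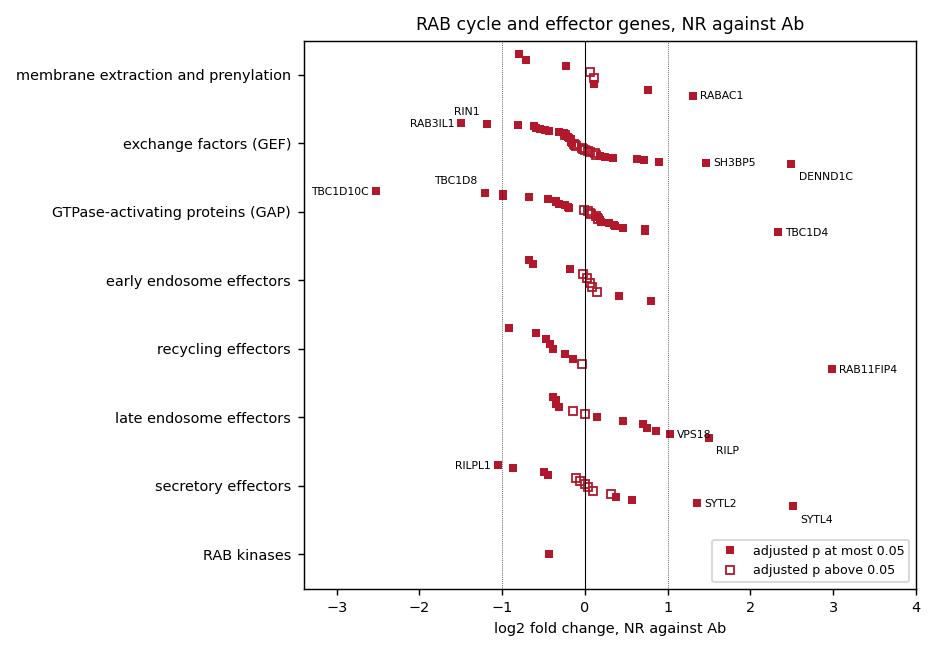
Log2 fold change in NR against Ab of the tested RAB cycle and effector genes by class (filled squares adjusted p at most 0.05, open squares above it; dotted lines mark 2-fold; genes past both are named). RAB11FIP4, SYTL4, DENND1C and TBC1D4 lie farthest to the right and TBC1D10C farthest to the left, of which RAB11FIP4, SYTL4 and TBC1D10C passed the count filter through 1 side of the comparison alone.

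In NR against SP, 120 of these genes were tested and 2 passed, both lower in NR, beside 0.443% of all genes. CHML, the second escort protein, was at 149, 135 and 143 CPM in NR and 171, 171 and 154 CPM in SP (log2 -0.21, SE 0.05, adjusted p = 0.035, edgeR). USO1, a RAB1 effector that tethers vesicles at the Golgi and was named after its value was seen, was at 95.9, 92.2 and 86.5 CPM in NR and 107, 104 and 106 CPM in SP (log2 -0.20, adjusted p = 0.049). Neither result passes in one fit of all libraries (adjusted p = 0.69 and 0.52), with a replicate block (0.050 and 0.079) or without NR replicate 2 or 3 or SP replicate 1 or 2 (0.11 to 0.19), nor does USO1 with RLE scaling (0.051) or without SP replicate 3 (0.060). Neither passed against Ab, where Ab replicate 1 was low for both, at 104 CPM against 144 and 160 for CHML and 80.4 CPM against 108 and 108 for USO1. Without that library, USO1 in NR passed (log2 -0.23, adjusted p = 7.3e-05, edgeR), as did CHML in SP (log2 0.12, adjusted p = 0.039).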

How the data were processed

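Poly-A RNA of 9 SNU5 libraries (3 each of NR, SP and Ab) was used. The authors aligned quality-filtered reads with HISAT2 2.1.0 and deposited raw counts per Ensembl gene, not scaled between libraries. The study's reporting summary names hg19, while the submitters' processing notes list mm9, and the gene IDs are human. The counting tool is named in more than one way, and its strand setting and annotation release are not given in the sources used here. IDs were matched to GENCODE release 44 on GRCh37: 59858 of 60880 matched, and the rest made up no more than 0.115% of any library. Of 70 symbols that match the naming rule, the 8 pseudogenes were left out.

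Groups were compared in pairs, each fit using the 6 libraries of that pair, with edgeR 4.0.16 under R 4.3.3 (TMM scaling, filterByExpr with a minimum count of 10 and a minimum total of 15, robust quasi-likelihood test, Benjamini-Hochberg adjustment over all genes tested), in place of the DESeq2 of the study. A gene passed when its adjusted p did not exceed 0.05, and was called if it also changed at least 2-fold. CPM and RPKM use TMM-scaled totals and union exon length. The scripts were tested on simulated data. Depth was 13863155 to 26318227 counts per library.

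Named RAB genes were those called, all RAB5, RAB7, RAB11 and RAB27 paralogs, and in each group the highest member and the 3 smallest adjusted p against Ab, with the 3 smallest in NR against SP; named regulators were those called, the 2 smallest adjusted p per class and the whole prenylation class, of which 1 result is not reported here. Other genes named were chosen after their values were seen. The members and lists were chosen with earlier results of these data known. Alternatives were DESeq2 1.42.0, RLE scaling, other count filters, one fit of all libraries, a replicate block, a 1.5-fold minimum, leaving out genes with over 10% shared exon bases, and leaving out each library. Sequences are from RefSeq (GRCh38.p14).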

Additional observations from a re-analysis of the deposited data

Results flagged for a closer look

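CHML and USO1 were lower in the NR than in the SP libraries in the direct test of these groups, with log2 differences of -0.21 and -0.20, although neither passed against Ab in NR or in SP. The adjusted p was 0.035 and 0.049 in edgeR, and all 3 NR libraries lay below all 3 SP libraries for both genes. In one fit of all 9 libraries the adjusted p was 0.69 and 0.52, and with a replicate block 0.050 and 0.079.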

How the results depend on the processing

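Without one library at a time, the RAB genes past the adjusted p in NR against Ab numbered 19 to 22 higher and 12 to 13 lower, and in SP against Ab 18 to 21 higher and 12 to 13 lower, and those called 7 to 9 in both. With genes that share over 10% of their exon bases left out, 13 RAB genes were higher in NR and 13 in SP. A minimum of 1.5-fold gave 18 called RAB genes in NR and 17 in SP. With at least 10 counts in every library the median log2 fold change of the RAB genes was 0.057 in NR and 0.082 in SP, and without one library it ranged from 0.049 to 0.10 for NR, from 0.082 to 0.13 for SP and from 0.011 to 0.047 for NR against SP. RAB genes past the adjusted p in NR against SP stayed at 0 under every alternative run. The RAB cycle and effector genes past it there were 1 with RLE scaling, 0 with all 9 libraries in one fit, 0 with the replicate block and 0 to 3 without one library. Same-numbered libraries deviated from their group means with correlations of -0.032 to 0.028. No shift shared by number was seen in these values, which cannot exclude that the samples were paired. The replicate block gave 20 higher and 12 lower RAB genes in NR and 20 and 12 in SP. The cause of these shifts was not tested, apart from the smaller number of genes or libraries that some settings use.

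Signs turned for genes close to no change. RAB7A in SP was -0.013 with at least 10 counts in every library, -0.0049 in one fit of all libraries and -0.012 to 0.019 without one library, and in NR -0.028 to 0.011. Without one library, RAB11B in NR was -0.12 to 0.0024, CHML in NR -0.089 to 0.19, RABIF in SP -0.012 to 0.068 and USO1 in SP -0.029 to 0.17. Low counts limit what can be read from the 15 untested RAB genes, of which 4 had 0 counts in all libraries. RAB43, RAB15 and RAB3A in Ab also rest on few counts.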
